A study of Homo sapiens with 8 samples.

Results

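The 9 genes of the matrix metalloproteinase system described here were measured in 8 total RNA libraries of the human osteosarcoma line U2OS: the proteases MMP9, MMP1, MMP2, MMP3, MMP13 and MMP14 and the inhibitors TIMP1, TIMP2 and TIMP3. They are 9 of 80311 genes in the deposited count table, found by their symbols. MMP9 was picked because it had the largest rise after MEPCE knockdown in the Flp-In line, so its values in that line are given as a description, without a test. That ranking was looked at among genes with a symbol and a mean of at least 5 CPM. The other 8 were picked by symbol, with earlier results of these data known. The 2 U2OS derivatives, U2OS-Flp-In-TREx (Flp-In below) and U2OS- AiD-DiVA AsiSI -ER (AsiSI below), were transfected with control siRNA (siNC) or with siRNA targeting MEPCE (siMePCE), with 2 libraries in each of the 4 groups. MePCE is the enzyme that puts a methyl cap on the noncoding RNA 7SK. Every group got its siRNA at 0 h and again at 48 h, and lysis followed at 96 h. AsiSI cells also received 300 nM 4-OHT from 92 h, for 4 h, in siNC and siMePCE alike. That line carries a restriction enzyme fused to an oestrogen receptor domain, so that 4-OHT brings it to act on DNA. The labels state no 4-OHT for Flp-In, so in every comparison between the lines 4-OHT and cell line cannot be told apart. Whether either line is a single clone, and whether replicates were separate cultures, is not given in the sources used here, and the p-values therefore reflect just the spread among these libraries, which may be technical.

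Matrix metalloproteinases are zinc-dependent proteases that cut collagens, laminins, fibronectin and other matrix proteins. Most are secreted as latent proenzymes and act only once the prodomain that blocks the active site is removed. The tissue inhibitors of metalloproteinases (TIMPs) bind the active site and shut it. MMP2 and MMP9 are the gelatinases, MMP1 and MMP13 are interstitial collagenases, MMP3 is a stromelysin, and MMP14 is anchored in the plasma membrane, where it activates the MMP2 proenzyme with TIMP2 as the bridge. In osteosarcoma these enzymes are studied for their part in invasion and bone destruction. RNA levels say nothing of latent or active protein.

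Promoter sequence was looked at for the members with an entry in the RefSeq table used here (build GRCh38.p14), which were 3 of 9. They are shown because they were the members with an entry: TIMP1 and TIMP3, which were higher in AsiSI than in Flp-In, and MMP14, which did not pass the test in any comparison. Each run holds the 250 bases before the RefSeq start on the plus strand. Capitals mark motif matches.

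MMP14 (chr14:22836335-22836584): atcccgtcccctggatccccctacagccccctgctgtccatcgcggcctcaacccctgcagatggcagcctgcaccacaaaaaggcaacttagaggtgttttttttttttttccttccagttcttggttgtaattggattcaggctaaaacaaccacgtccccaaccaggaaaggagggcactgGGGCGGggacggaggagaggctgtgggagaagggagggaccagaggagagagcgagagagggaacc

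TIMP1 (chrX:47582186-47582435): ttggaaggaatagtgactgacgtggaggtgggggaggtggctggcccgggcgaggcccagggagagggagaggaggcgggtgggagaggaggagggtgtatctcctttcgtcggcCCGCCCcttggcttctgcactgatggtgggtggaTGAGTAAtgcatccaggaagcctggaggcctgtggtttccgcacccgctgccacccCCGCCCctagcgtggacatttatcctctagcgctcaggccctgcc

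TIMP3 (chr22:32801455-32801704): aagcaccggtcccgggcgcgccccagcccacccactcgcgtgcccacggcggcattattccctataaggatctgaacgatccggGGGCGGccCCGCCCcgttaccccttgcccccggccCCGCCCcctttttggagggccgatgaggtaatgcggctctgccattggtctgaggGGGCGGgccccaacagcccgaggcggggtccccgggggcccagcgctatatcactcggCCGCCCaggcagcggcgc

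The 5 motifs below were searched on both strands: the AP-1 site TGANTCA, the AP-1 variant TGAGTAA, the TATA box TATAAA, the GC box GGGCGG and an NF-kB motif, GGGNNTTCC. Of 35116 promoters of this length, 6.57%, 2.21%, 10.7%, 42.6% and 5.78% held them, in that order. MMP14 had 1 GC box, starting at -66 from the gene start. TIMP1 had the AP-1 variant at -101 and GC boxes at -135 and -45. TIMP3 had 5 GC boxes, at -166, -158, -131, -76 and -18. No match overlapped another. The share of G and C was 56.8% in MMP14, 64.8% in TIMP1 and 72.4% in TIMP3, with a median of 58% over all promoters. A match is a description of the letters and not a bound site.

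Total counts were 41431776 to 53695626 per library. MEPCE itself, the check on the labels, was at 40.0 ± 0.141 CPM in Flp-In siNC and 5.10 ± 0.362 CPM in Flp-In siMePCE, and at 29.3 ± 0.0299 and 2.97 ± 0.956 CPM in AsiSI (SD, n = 2; CPM is counts relative to the TMM-scaled library size). Mitochondrial genes took 5.23% to 5.91% of counts in siNC and 8.24% to 10.6% in siMePCE libraries. All mesenchymal markers checked (10 of 10) passed the filter on low counts, with COL1A2 below 1 CPM in every library. Their summed level was 1582 to 2407 CPM in siNC and 1058 to 1826 CPM in siMePCE, most of it from VIM and SPARC, while 2 of the 10 rose and 5 fell in Flp-In and 3 rose and 3 fell in AsiSI (median log2 -0.38 and 0.04). CDH11 rose in both lines (means 4.76 to 18.4 CPM in Flp-In and 17.2 to 27.7 CPM in AsiSI). TWIST1 and COL1A2 also had higher means after knockdown in both. VIM, COL1A1 (73.6 to 28.1 CPM in Flp-In and 111 to 86.1 CPM in AsiSI), SPARC, FN1 and ALPL had lower means in both. RUNX2 and CDH2 had lower means in Flp-In and higher means in AsiSI. Leukocyte and osteoclast markers, of cells that are rich sources of MMP9, summed to 20.4 to 25.1 CPM in siNC and 21.9 to 24.9 CPM in siMePCE libraries, and 5 of 10 (CD14, LYZ, MPO, ACP5 and OCSTAMP) were below 1 CPM in every library. Behind that level sum, 4 of the 7 tested rose and 1 fell in Flp-In, and 3 rose and 2 fell in AsiSI (median log2 0.63 and 0.20). ITGAM (means 2.16 to 4.07 CPM in Flp-In and 0.944 to 2.43 CPM in AsiSI), CSF1R (4.38 to 6.77 and 5.10 to 7.77 CPM) and CTSS (1.24 to 2.19 and 0.795 to 2.24 CPM) rose in both lines, and PTPRC rose in Flp-In (1.23 to 2.46 CPM). CD68 fell in both (11.8 to 6.10 and 10.2 to 4.31 CPM). Epithelial markers summed to 10.96 to 25.4 CPM in siNC and 24.1 to 42.1 CPM in siMePCE, with KRT14 below 1 CPM. Within each line the epithelial sum was higher after knockdown, and the mesenchymal sum was lower. CLDN4 had the largest share of the epithelial gain. Its mean for siNC was 12.6 against 25.3 CPM for siMePCE (Flp-In), and 2.87 against 12.85 CPM (AsiSI). The EPCAM mean was lower after knockdown in Flp-In (4.49 against 6.17 CPM) and higher in AsiSI (4.49 against 2.75 CPM). In each line 3 of 7 epithelial markers tested rose and 1, KRT5, fell. Beside these marker counts, 18.1% of all genes tested were called higher and 22.8% lower in Flp-In. The shares in AsiSI were 16.8% and 21.4%. Overlapping genes held 39.7 times the counts of CD68, 11.6 times those of PTPRC and 25.1 times those of ACP5. For COL1A2, KRT5 and EPCAM the ratios were 26.4, 4.37 and 3.81. Reads of these pairs cannot be told apart, so the changes of these markers are uncertain. The part of these 3 lists in the results was not tested. With mitochondrial, RN7SK, RN7SL and ribosomal RNA genes removed before scaling, no member changed its direction or its side of the threshold.

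**Figure D1:**
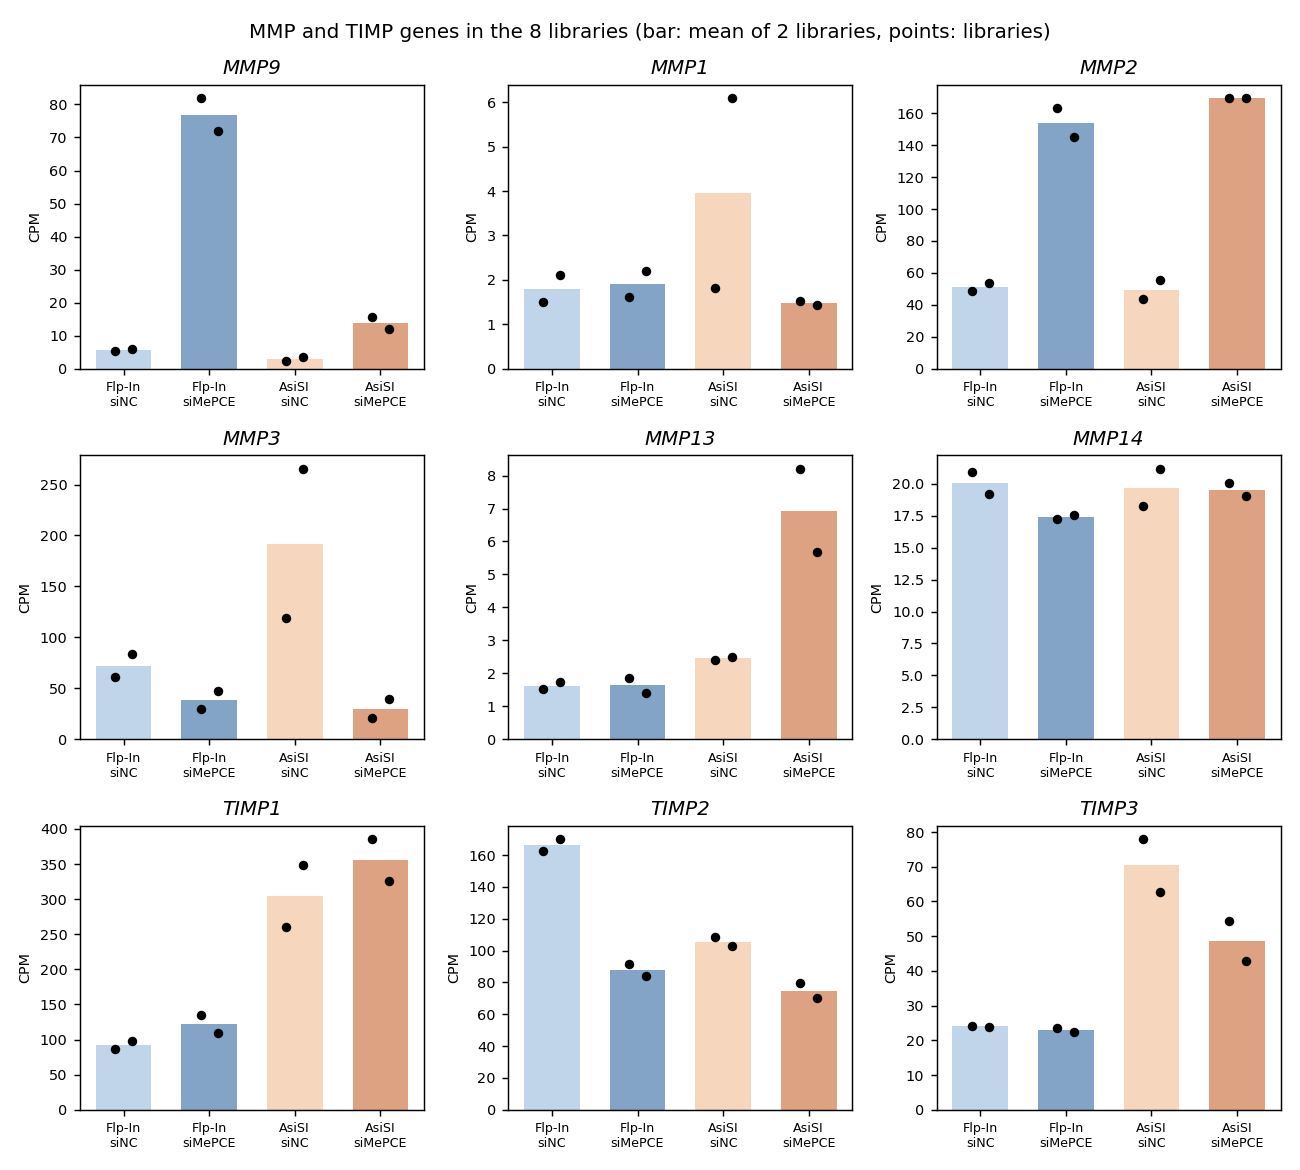
Level of each MMP and TIMP gene in CPM (linear axes from 0, 1 panel per gene) by line and siRNA; bars are means of 2 libraries and points are the libraries. MMP9 and MMP2 were higher in all siMePCE libraries than in all siNC libraries of the same line, TIMP2 was lower, and TIMP1 and TIMP3 stood higher in AsiSI than in Flp-In.

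Gelatinases were the members with every siMePCE library above every siNC library of the same line, in both lines. TIMP1 and MMP13 also had higher means in both, with overlapping libraries in AsiSI (TIMP1) and in Flp-In (MMP13). MMP9 (ENSG00000100985, chromosome 20, 44637547 to 44645200, plus strand, hg19 as for all member positions) had 234 and 256 counts in the siNC libraries of Flp-In against 4036 and 3474 after siMePCE. The AsiSI libraries held 119 and 182 counts with siNC and 692 and 532 with siMePCE. As levels these were 5.46 and 6.13 CPM, then 81.8 and 71.8 CPM, in Flp-In, and 2.48 and 3.46, then 15.6 and 11.98 CPM, in AsiSI. The 4 groups did not overlap, and their order from low to high was AsiSI siNC, Flp-In siNC, AsiSI siMePCE and Flp-In siMePCE. In the line that did not serve to choose it, MMP9 rose 4.62-fold (log2 fold change 2.21, SE 0.163, edgeR adjusted p = 3.81e-10). The Flp-In values that chose it were 5.79 ± 0.475 and 76.8 ± 7.04 CPM (SD, n = 2), 13.3-fold apart (log2 3.73, SE 0.156). TRAF1 came next among genes with a symbol and a mean of at least 5 CPM, at 9.03-fold, followed by SLC8A1-AS1 at 8.21-fold and FREM1 at 7.95-fold. Between the lines, MMP9 stood 1.94-fold lower in AsiSI than in Flp-In under siNC and 5.57-fold lower under siMePCE. The log2 effect of knockdown was smaller in AsiSI by a difference of -1.52 (SE 0.222), a value that rests on the Flp-In libraries and has no test. In bulk RNA, fewer cells with a transcript and less of it per cell cannot be told apart.

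The MMP9 interval shares 3062 bases with the minus-strand gene SLC12A5-AS1, and the deposited counts appear to give a read to both genes. SLC12A5-AS1 counts were 165 and 177 with siNC and 1035 and 811 with siMePCE in Flp-In, and 128 and 126, then 286 and 251, in AsiSI. MMP9 exceeded it by 69 and 79 counts with siNC and by 3001 and 2663 with siMePCE in Flp-In. In AsiSI siMePCE the excess was 406 and 281 counts, and under AsiSI siNC it was -9 and 56, so at the low end of its range the reads of MMP9 and its antisense neighbour cannot be told apart. The 4 nearest tested neighbours without overlap (ZNF335, PCIF1, SLC12A5 and NCOA5) had log2 fold changes from -0.49 to 0.33 in Flp-In and from -0.74 to 0.44 in AsiSI. SLC12A5, a neuronal potassium-chloride cotransporter gene that starts 5.13 kb away, had log2 fold changes of -0.32 (SE 0.194, adjusted p = 0.2) in Flp-In and 0.44 (SE 0.200, adjusted p = 0.0888) in AsiSI. NCOA5, a nuclear receptor coactivator gene 44.4 kb away, fell by 0.49 in Flp-In and by 0.74 in AsiSI on the log2 scale (adjusted p = 0.000258 and 1.67e-06).

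MMP2 (ENSG00000087245, chromosome 16, 55423612 to 55540603, plus strand), the other gelatinase, was at 48.5 and 53.9 CPM in Flp-In siNC and 163 and 145 CPM in Flp-In siMePCE. AsiSI siNC had 43.4 and 55.5 CPM, and AsiSI siMePCE had 169 CPM in both libraries. The knockdown libraries of both lines lay above all siNC libraries. MMP2 rose 3.01-fold in Flp-In (log2 fold change 1.59, SE 0.105, adjusted p = 6.34e-11) and, in AsiSI, 3.42-fold (log2 fold change 1.77, SE 0.105, adjusted p = 1.41e-11). The difference between the lines was 0.18 on the log2 scale (SE 0.145, adjusted p = 0.561), and 2 SE on either side of it span -0.11 to 0.47. Nor did MMP2 pass the test between the lines under siNC (log2 -0.05, adjusted p = 0.785) or under siMePCE (log2 0.14, adjusted p = 0.345). MMP2-AS1, on the opposite strand, held 0.00566 times the counts of MMP2.

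Among the 8 members tested in Flp-In, 2 rose (MMP2 and TIMP1), 1 fell (TIMP2) and 5 did not pass the test. Of all 43321 genes tested there, 40.9% were called, 18.1% as higher and 22.8% as lower. In AsiSI, 3 of 9 rose (MMP9, MMP2 and MMP13), 4 fell (MMP1, MMP3, TIMP2 and TIMP3) and 2 did not pass, against 38.2% of all genes called, 16.8% as higher and 21.4% as lower. The median log2 fold change of the 9 members was 0.01 in Flp-In and -0.01 in AsiSI, beside 0.03 and 0.04 over all genes tested. All 9 members passed the filter on low counts in every comparison.

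**Figure D2:**
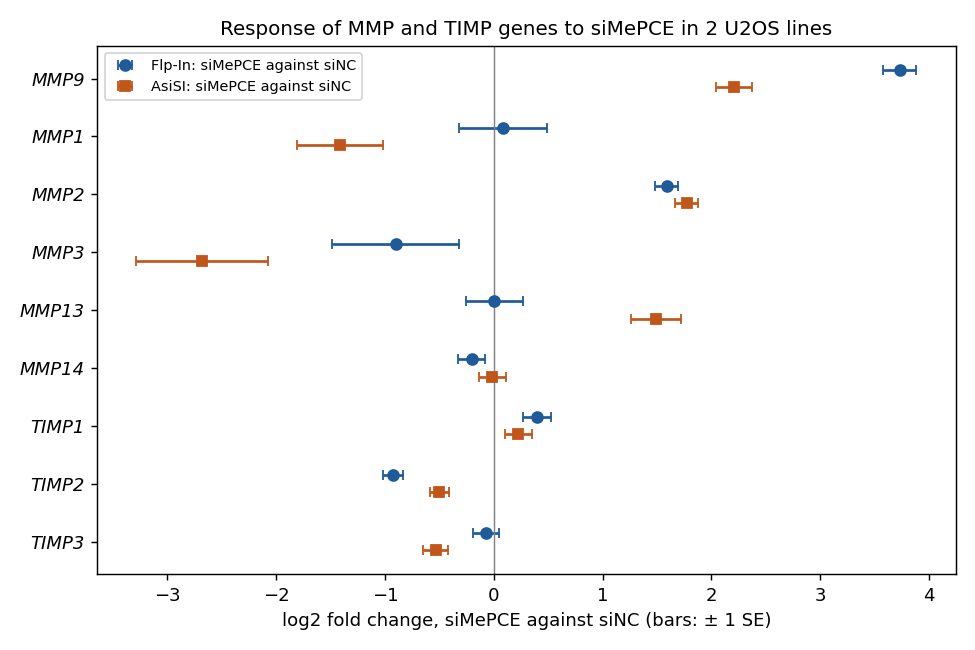
Log2 fold change of siMePCE against siNC for each member gene in Flp-In (circles) and AsiSI (squares); bars are ± 1 SE of the edgeR fit. MMP2 and TIMP2 moved the same way in both lines, whereas MMP13 was near 0 in Flp-In and at 1.49 in AsiSI.

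The collagenases and the stromelysin lie together in the metalloproteinase cluster of chromosome 11, and they did not move as 1 block. MMP13 (ENSG00000137745, chromosome 11, 102813724 to 102826461, minus strand), a collagenase known from cartilage and bone, had 1.54 and 1.72 CPM in Flp-In siNC and 1.86 and 1.41 CPM in Flp-In siMePCE. It had 2.42 and 2.51 CPM in AsiSI siNC and 8.20 and 5.68 CPM in AsiSI siMePCE. Both AsiSI siMePCE libraries lay above the other 6, while the Flp-In groups overlapped. In AsiSI, MMP13 rose 2.81-fold (log2 fold change 1.49, SE 0.234, adjusted p = 2.02e-05), with a Flp-In value of 0.01 (SE 0.262, adjusted p = 0.989). Of the 8 members tested for a difference of the knockdown effect between the lines, MMP13 was the 1 that was called (log2 difference 1.49, SE 0.350, adjusted p = 0.0154), and 4.41% of all genes were called, 2.60% as higher. The call was lost without the AsiSI siMePCE library 1 (adjusted p = 0.0764), Flp-In siNC library 2 (0.0662) or Flp-In siMePCE library 2 (0.071).

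MMP3 (ENSG00000149968, chromosome 11, 102706532 to 102714340, minus strand) cuts many matrix proteins and also other proenzymes of its family. Its level was 60.8 and 83.6 CPM in Flp-In siNC, 30.1 and 47.1 CPM in Flp-In siMePCE, 119 and 265 CPM in AsiSI siNC, and 20.5 and 39.5 CPM in AsiSI siMePCE. Groups did not overlap within either line, but the replicates of a group lay far apart, library 2 being above library 1 in all 4 groups, with a mean of 192 ± 104 CPM in AsiSI siNC (SD, n = 2). In AsiSI the fall of MMP3 was 6.41-fold (log2 fold change -2.68, SE 0.606, adjusted p = 0.029). The Flp-In value was -0.90 (SE 0.580, adjusted p = 0.294), and the difference between the lines was -1.78 (SE 0.820, adjusted p = 0.381). Leaving out any library but AsiSI siNC 1 ended the AsiSI call, with adjusted p from 0.0559 to 0.116 and log2 fold changes from -3.24 to -1.98, as did the fit of the 4 AsiSI libraries alone (adjusted p = 0.121) and the fit without a filter on low counts (0.0521). Fitted without edgeR's robust option, the Flp-In fall and the difference between the lines passed the test instead (adjusted p = 0.0132 and 0.0123). Both also passed in the edgeR fit with a block for the replicate number (adjusted p = 1.01e-05 and 1.6e-05).

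MMP1 (ENSG00000196611, chromosome 11, 102660132 to 102668891, minus strand), the collagenase of fibroblasts, was low everywhere. Flp-In siNC had 1.49 and 2.11 CPM and Flp-In siMePCE 1.62 and 2.19 CPM. AsiSI siNC had 1.81 and 6.08 CPM, and AsiSI siMePCE 1.53 and 1.44 CPM. A single library, AsiSI siNC 2, stood apart from the other 7. In AsiSI the fit called MMP1 lower (log2 fold change -1.41, SE 0.398, adjusted p = 0.00878), and without that library the value was -0.28 (adjusted p = 0.603). It also lost the call without either AsiSI siMePCE library (adjusted p = 0.0818 without 1 and 0.126 without 2). In Flp-In the log2 fold change was 0.08 (SE 0.407, adjusted p = 0.888), and the difference between the lines was -1.50 (SE 0.569, adjusted p = 0.161; 0.00203 without AsiSI siNC library 1). MMP1 lies wholly inside the opposite-strand gene ENSG00000293047 (chromosome 11, 102617699 to 102707497), which held 6.99 to 13.4 times its counts and had a log2 fold change of -1.18 in AsiSI (SE 0.262, adjusted p = 0.00468). Reads of these 2 genes cannot be told apart here. ENSG00000293047 also shares 966 bases with MMP3 and held 0.244 times the counts of MMP3. How far MMP3 reads enter its values was not tested.

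Across 435 kb the cluster held 9 MMP genes, 7 of which passed the filter on low counts (MMP7, MMP20, MMP10, MMP1, MMP3, MMP12 and MMP13). MMP20, known as the enamel protease, went the way of MMP13: its means were 1.61 and 1.71 CPM in Flp-In siNC and siMePCE and 1.59 and 4.38 CPM in AsiSI. After knockdown it rose in that line (log2 fold change 1.46, SE 0.249, adjusted p = 5.7e-05). MMP20-AS1, on the opposite strand, shares 18417 bases with MMP20 and held 0.309 times its counts. This antisense gene rose too in AsiSI (log2 1.71, SE 0.416, adjusted p = 0.00225). MMP10, the other stromelysin, was 0.733 and 1.56 CPM in Flp-In and 2.71 and 5.65 CPM in AsiSI, and it rose in both lines (log2 1.09, adjusted p = 0.0173, and 1.05, adjusted p = 0.00567), opposite in direction to MMP3 in AsiSI. Its call in Flp-In was lost without Flp-In siNC library 1 (adjusted p = 0.135) or Flp-In siMePCE library 2 (0.448), and that in AsiSI without AsiSI siNC library 1 (0.074) or AsiSI siMePCE library 2 (0.117). ENSG00000293047, which spans MMP10 as well, held 7.91 times its counts.

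MMP14 (ENSG00000157227, chromosome 14, 23305769 to 23318250, plus strand), the membrane-bound activator of MMP2, did not pass the test in any of the 5 comparisons. It had 20.9 and 19.2 CPM in Flp-In siNC, 17.2 and 17.6 CPM in Flp-In siMePCE, 18.2 and 21.2 CPM in AsiSI siNC, and 20.1 and 19.1 CPM in AsiSI siMePCE. All 8 libraries lay within 17.2 to 21.2 CPM. The log2 fold change was -0.20 in Flp-In (SE 0.123, adjusted p = 0.193), with 2 SE on either side spanning -0.45 to 0.04. In AsiSI it was -0.01 (SE 0.122, adjusted p = 0.951), spanning -0.26 to 0.23, and with DESeq2 size factors it was 0.02.

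Inhibitors went in different directions. TIMP2 (ENSG00000035862, chromosome 17, 76849059 to 76921469, minus strand), the partner of MMP2 and MMP14, was at 163 and 170 CPM in Flp-In siNC and 91.3 and 83.7 CPM in Flp-In siMePCE. AsiSI siNC had 108 and 103 CPM, and AsiSI siMePCE had 79.5 and 69.9 CPM. The 4 groups did not overlap. TIMP2 fell 1.90-fold in Flp-In (log2 fold change -0.93, SE 0.0886, adjusted p = 2.02e-08) and, in AsiSI, 1.41-fold (log2 fold change -0.50, SE 0.0886, adjusted p = 9.22e-05). The difference between the lines, 0.43 (SE 0.125), had an adjusted p of 0.0534. It passed the threshold with DESeq2 size factors (0.0406), with a filter at a mean of 1 CPM (0.0105), with DESeq2's own test (0.013) and without AsiSI siMePCE library 2 (0.0314). Under siNC, TIMP2 was 1.57-fold lower in AsiSI than in Flp-In (log2 -0.66, SE 0.0881, adjusted p = 4.22e-06).

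TIMP1 (ENSG00000102265, chromosome X, 47441807 to 47446188, plus strand), the secreted inhibitor that binds the MMP9 proenzyme, had 85.9 and 98.6 CPM in Flp-In siNC and 134 and 109 CPM in Flp-In siMePCE. AsiSI siNC had 260 and 348 CPM and AsiSI siMePCE 385 and 326 CPM. Every AsiSI library lay above every Flp-In library. The knockdown effect was small beside the gap between lines. TIMP1 rose 1.32-fold in Flp-In (log2 fold change 0.40, SE 0.128, adjusted p = 0.0192), and the call was lost without Flp-In siNC library 1 (adjusted p = 0.182), Flp-In siMePCE library 1 (0.264) or with DESeq2 (0.0941). A replicate block in the edgeR fit also ended the Flp-In call (adjusted p = 0.188). In AsiSI the value was 0.23 (SE 0.126, adjusted p = 0.177). Without AsiSI siNC library 2 that value was 0.45 (adjusted p = 0.00426), and with the filter at a mean of 1 CPM it was 0.35 (adjusted p = 0.0375). TIMP1 lies wholly inside SYN1, a synaptic vesicle protein gene on the other strand, which held 1.01 to 1.03 times its counts and exceeded it by 71 to 321 counts.

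TIMP3 (ENSG00000100234, chromosome 22, 33197691 to 33259028, plus strand) is the inhibitor that stays bound to the matrix and also acts on ADAM17. Flp-In libraries lay close together, with 24.2 and 23.9 CPM under siNC and 23.4 and 22.3 CPM under siMePCE (log2 fold change -0.07, SE 0.122, adjusted p = 0.665, 2 SE spanning -0.32 to 0.17). In AsiSI it had 77.9 and 62.9 CPM under siNC and 54.3 and 42.8 CPM under siMePCE. There TIMP3 fell 1.45-fold (log2 fold change -0.54, SE 0.117, adjusted p = 0.000829). The difference between the lines was -0.46 (SE 0.169) with an adjusted p of 0.133, and it passed without AsiSI siMePCE library 1 (adjusted p = 0.0306) or AsiSI siNC library 2 (0.0361). SYN3, a synapsin gene on the opposite strand that contains TIMP3, held 1.19 to 1.81 times its counts, and it fell too in AsiSI (log2 -0.35, SE 0.101, adjusted p = 0.00751).

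Compared between the lines under siNC, 3 of 8 members tested were higher in AsiSI (MMP1, TIMP1 and TIMP3) and 1 was lower (TIMP2), while 29.6% of all genes were called, 14.4% as higher and 15.2% as lower. These values share their siNC libraries with the knockdown comparisons. TIMP1 stood 3.30-fold higher (log2 1.72, SE 0.131, adjusted p = 1.57e-08) and TIMP3 2.93-fold higher (log2 1.55, SE 0.121, adjusted p = 1.17e-09). The MMP1 call (log2 1.14, SE 0.393, adjusted p = 0.0355) was lost in 7 of 8 fits that left out 1 library, and without AsiSI siNC library 2 its value was 0.03 (adjusted p = 0.97). Under siMePCE, 3 of 8 were higher in AsiSI (MMP13, TIMP1 and TIMP3) and the other 5 did not pass, with 31.7% of all genes called, 15.7% as higher. MMP13 was 4.23-fold higher there (log2 2.08, SE 0.243, adjusted p = 5.37e-07), TIMP1 2.93-fold (log2 1.55, SE 0.130, adjusted p = 5.33e-08) and TIMP3 2.12-fold (log2 1.09, SE 0.120, adjusted p = 2.55e-07).

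Protease and inhibitor were also set against each other within a library, which leaves scaling out. The ratio of MMP2 to TIMP2 counts in Flp-In was 0.298 and 0.317 with siNC and 1.79 and 1.73 with siMePCE. The AsiSI libraries gave 0.400 and 0.541, then 2.13 and 2.42. The ratio of means was 5.72-fold higher after knockdown in Flp-In and 4.84-fold in AsiSI, and groups did not overlap in either line. For MMP9 to TIMP1 the ratio was 0.0635 and 0.0622, then 0.609 and 0.661, in Flp-In. In AsiSI it was 0.00954 and 0.00993, then 0.0405 and 0.0367, or 3.97-fold higher. Counts are not per length, so the ratios compare libraries and not the amounts of the 2 transcripts. They carry no test, since the members were already known to move.

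**Figure D3:**
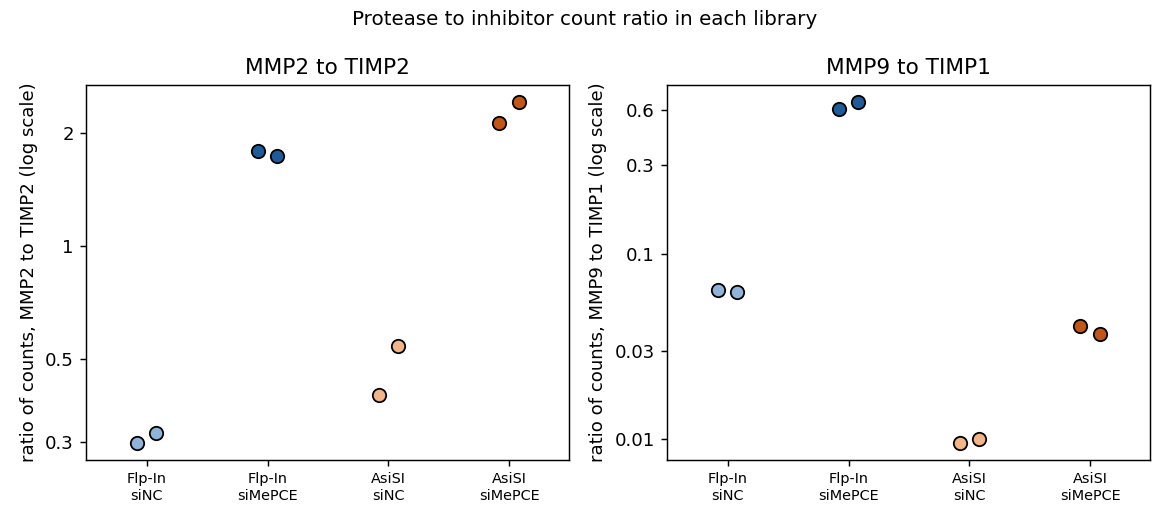
Ratio of counts in each library on log axes, MMP2 to TIMP2 on the left and MMP9 to TIMP1 on the right; each point is 1 library. In both panels the siMePCE libraries lie above the siNC libraries of their line, and the MMP9 to TIMP1 ratio is lower in AsiSI than in Flp-In for each siRNA.

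Likeness to the MMP9 profile over the 8 libraries was measured by the distance of log2(CPM + 0.1) values centred on each gene's mean. The 13485 genes compared had a symbol, a mean of at least 5 CPM and no overlap with MMP9. Of the 5 nearest genes, 4 are given here. They were MIR3142HG, the host transcript of a microRNA (distance 0.574, r = 0.971), BIRC3, an inhibitor of apoptosis (0.607, r = 0.941), TRAF1, an adaptor of TNF receptors (0.614, r = 0.937), and HMOX1, the haem-degrading oxygenase (0.619, r = 0.944). The points share their libraries, so r is a description. BIRC3 had means of 25.9 ± 1.11 and 194 ± 31.0 CPM in Flp-In and 7.56 ± 2.12 and 84.2 ± 20.7 CPM in AsiSI (SD, n = 2). TRAF1 had 5.35 ± 0.901 and 48.3 ± 2.90 CPM in Flp-In and 3.34 ± 1.23 and 24.4 ± 5.67 CPM in AsiSI. These 4 had the same order of groups as MMP9, with AsiSI siNC lowest and Flp-In siMePCE highest. They were chosen for nearness to MMP9 in these same libraries, so a shared order is no separate result. BIRC3 rose more in AsiSI (11.15-fold) than in Flp-In (7.51-fold), whereas MMP9 and the other genes given rose more in Flp-In. Ranked by Pearson's r instead, the 5 nearest genes shared 0 names with the 5 nearest by distance.

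**Figure D4:**
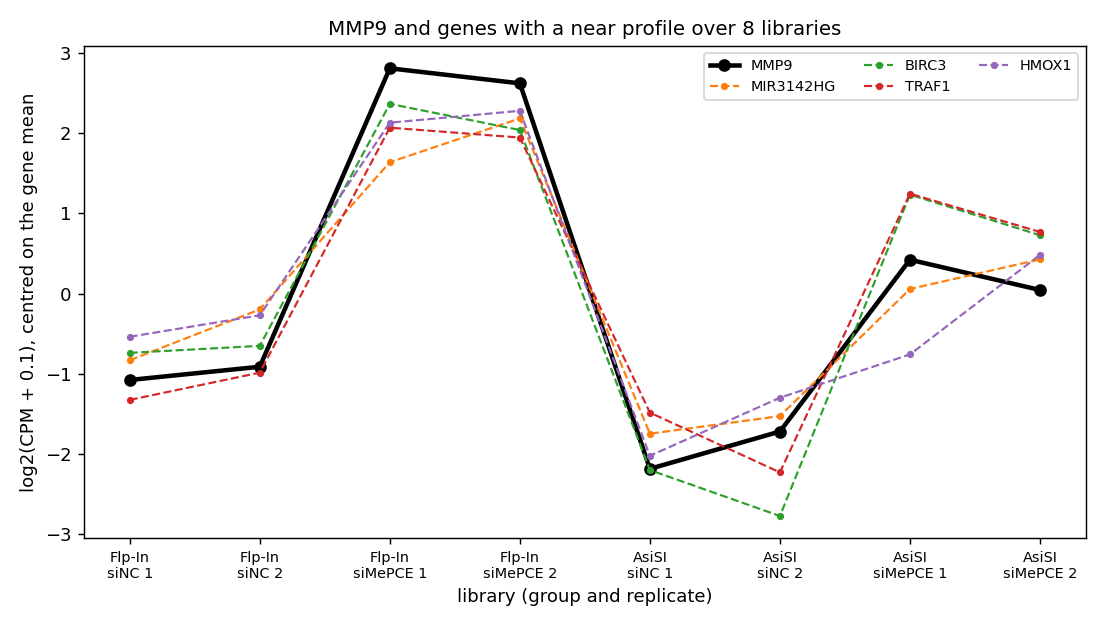
Profile of MMP9 (thick black line) and 4 of the 5 genes nearest to it (dashed lines) over the 8 libraries, as log2(CPM + 0.1) centred on each gene's mean; lines join libraries only to guide the eye. All 5 genes drawn are highest in the Flp-In siMePCE libraries.

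The rest of the family and its surroundings were described by lists. Of 18 further genes, the other MMPs and TIMP4, 14 passed the filter on low counts, and 2 rose and 5 fell in Flp-In and 2 rose and 4 fell in AsiSI (median log2 -0.13 and -0.07), beside 18.1% higher and 22.8% lower over all genes in Flp-In and 16.8% and 21.4% in AsiSI. MMP16, a membrane-type relative of MMP14, fell from a mean of 196 to 85.6 CPM in Flp-In (log2 -1.20, SE 0.083, adjusted p = 1.41e-10) and 358 to 167 CPM in AsiSI (log2 -1.10, SE 0.082, adjusted p = 4.52e-10). MMP24, a further membrane-type enzyme, fell by 0.63 and 0.72 on the log2 scale (adjusted p = 0.00114 and 0.000193). The first of these calls was lost without Flp-In siNC library 2 (log2 -0.43). An opposite-strand gene held 1.91 times the counts of MMP24, and MMP24OS, also on that strand, held 1.11 times them. MMP19 fell by 0.67 in Flp-In (adjusted p = 0.00494), lost without Flp-In siNC library 2 (0.128) or Flp-In siMePCE library 2 (0.081). MMP26, the smallest enzyme of the family, rose by 1.49 there (adjusted p = 0.00495), from a mean of 0.951 to 2.66 CPM. The call was lost without Flp-In siNC library 1 (log2 0.93) or Flp-In siMePCE library 2 (log2 0.94). In AsiSI, MMP19 and MMP26 did not pass (log2 -0.23 and 0.75, adjusted p = 0.334 and 0.117). MMP26 passed there without a filter on low counts (0.0441), with the replicate block (0.0162) and in the 4 AsiSI libraries alone (0.0485).

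Of 32 genes that activate, inhibit or dock MMPs, 30 were tested. In Flp-In 8 rose and 13 fell, and in AsiSI 7 rose and 14 fell (median log2 -0.01 and -0.29). Over all genes, 18.1% and 16.8% were called higher and 22.8% and 21.4% lower. LRP1, the receptor that takes up MMPs and their complexes with inhibitors, fell by 1.71 in Flp-In and 0.96 in AsiSI on the log2 scale (adjusted p = 2.37e-11 and 1.17e-07). FURIN, which removes the prodomain of MMP14 inside the cell, fell by 0.89 and 0.87 (adjusted p = 5.14e-07 and 6.06e-07), and CTSB, a lysosomal protease, by 1.00 and 1.06 (adjusted p = 5.6e-08 and 2.12e-08).

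The ADAM proteins are membrane relatives of the MMPs, and TIMP3 also inhibits some of the active proteases among them. They had 4 genes up and 4 down of 10 tested in Flp-In and 4 up and 3 down in AsiSI (median log2 -0.01 and -0.07), beside 18.1% up and 22.8% down, and 16.8% and 21.4%, over all genes. ADAM28 rose by 2.21 and 2.01 (adjusted p = 2.48e-07 and 3.98e-06), although an antisense gene held 4.12 times its counts. ADAM17, which sheds TNF, rose by 0.34 in Flp-In and 0.46 in AsiSI (adjusted p = 0.00562 and 0.000434). The Flp-In call was lost without Flp-In siNC library 1 (adjusted p = 0.0629), Flp-In siNC library 2 (0.0533) or Flp-In siMePCE library 1 (0.087). IAH1, on the opposite strand, shares 8058 bases with ADAM17 and held 0.566 times the counts of ADAM17. ADAM9 fell by 0.48 and 0.51 (adjusted p = 3.11e-05 and 1.82e-05).

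Basement membrane and elastin genes, whose products gelatinases cut, were 23, all tested. In Flp-In 3 rose and 16 fell (median log2 -0.66), and in AsiSI 1 rose and 12 fell (median -0.57), beside medians of 0.03 and 0.04 over all genes, of which 22.8% and 21.4% were called lower and 18.1% and 16.8% higher. LAMB2, a laminin chain, had means of 45.0 and 12.9 CPM in Flp-In and 30.1 and 8.77 CPM in AsiSI and fell in both (log2 -1.80 and -1.78, adjusted p = 1.39e-10 and 2.74e-10). FN1, fibronectin, fell from means of 123 and 341 CPM to 50.1 and 136 CPM (log2 -1.29 and -1.32, adjusted p = 8.1e-10 and 4.86e-10). COL5A1 fell by 2.32 in Flp-In and 0.86 in AsiSI (adjusted p = 6.87e-13 and 9.91e-07).

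Transcription factors known to act at MMP promoters numbered 18, with 5 up and 3 down in Flp-In and 8 up and 5 down in AsiSI (median log2 0.08 and 0.19), beside 40.9% and 38.2% of all genes called in either direction. NFKB1 and RELB, of the NF-kB family, rose in both lines, by 1.08 and 1.31 for NFKB1 (adjusted p = 1.09e-09 and 7.09e-11) and by 1.35 and 1.39 for RELB (adjusted p = 2.9e-07 and 2.47e-07). JUND, a subunit of AP-1, fell by 2.12 and 2.14 (adjusted p = 3.31e-11 and 4.13e-11). JUNB and FOSB, of the same family, were called higher in both lines, but opposite-strand genes held 2.84 and 14.9 times their counts. These lists were chosen with results of these libraries known, so their counts are a description.

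**Figure D5:**
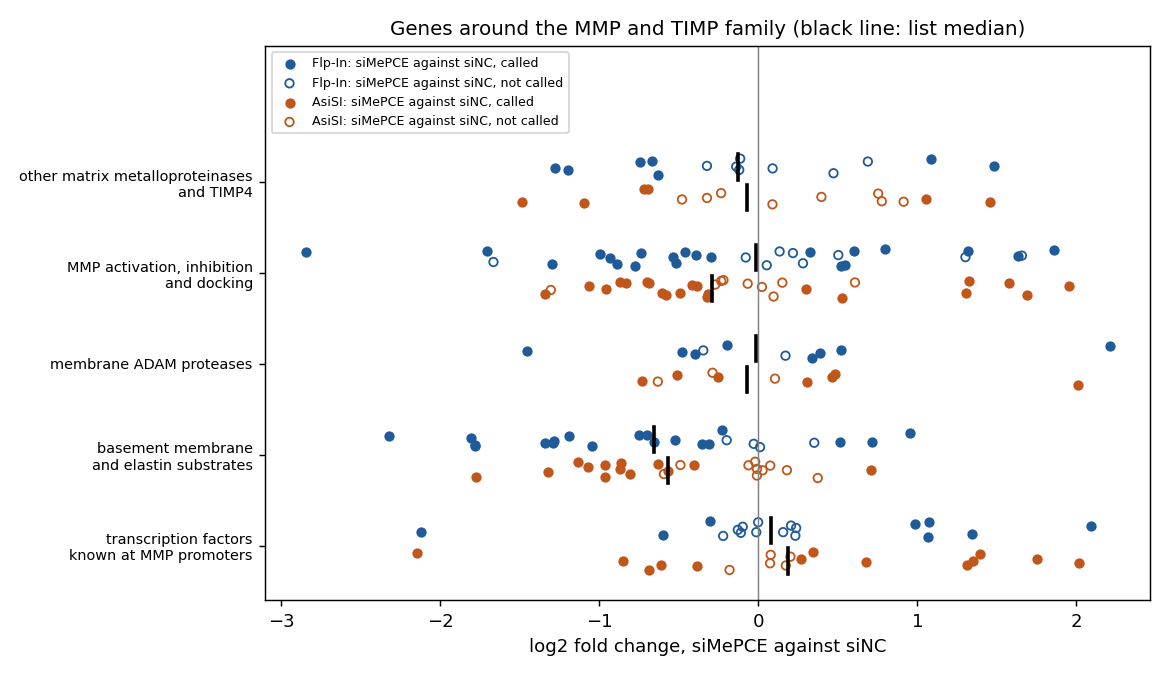
Log2 fold change of siMePCE against siNC for the tested genes of 5 lists in Flp-In (blue, upper row) and AsiSI (orange, lower row); filled points passed edgeR's test, open points did not, and black lines are list medians. The substrate list has medians of -0.66 and -0.57, and the other lists have medians between -0.29 and 0.19.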

How the data were processed

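Total RNA of 8 libraries in 4 groups of 2 was analysed from raw counts per gene, which the authors deposited for 80311 genes with hg19 coordinates. Per the labels, libraries were directional and made after removal of ribosomal RNA. Per the submitters' processing notes, Trim Galore, FastQC, STAR, SAMtools and featureCounts were used, without versions or settings. In 80311 of 80311 rows the listed length equals the span from start to end, so introns were counted, and from the values a read seems to count for all genes it overlaps on either strand, which makes single genes uncertain where another overlaps. Symbols were found for 50.8% of rows, which hold 85.2% of counts. All 8 columns of counts were used, and 0 other columns of per-sample values were present.

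Genes were filtered with filterByExpr by group (43321 left), scaled by TMM and modelled with 1 mean per group in edgeR 4.0.16 (R 4.3.3; quasi-likelihood fit with the robust option), over 5 contrasts. A Benjamini-Hochberg adjusted p under 0.05 over all genes was called. SE is the log2 fold change over the root of F, and 2 SE on either side gave intervals. The fit was tested on simulated data with known changes. Replicates differed by more than sampling noise (chi-square per degree of freedom 4.51 to 11.3), so each was counted as 1 sample. The common biological coefficient of variation was 0.121, and depth per library was 41431776 to 53695626 counts.

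The members and lists were chosen with earlier results of these data known. Named were all 9 members, up to 4 genes per other list and line by adjusted p, and the 5 genes nearest to MMP9. A few genes that these rules name are not reported here. SERPINE2, TFPI2, SPOCK1 and CLDN1, and the genes beside or overlapping members, were chosen once their values were known. The alternatives tried were DESeq2 1.42.0, its size factors, other filters, removal of mitochondrial and other abundant noncoding RNA genes, a replicate block, fits of the 4 libraries compared, each library left out, and, added after the data were seen, edgeR without its robust option. Promoters came from RefSeq on GRCh38.p14 and were used for sequence only, apart from the hg19 positions.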

Additional observations from a re-analysis of the deposited data

Results flagged for a closer look

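The effect of knockdown differed between AsiSI and Flp-In for 1912 of 43321 genes by the test of the difference itself, and 1 of the 8 members tested was among them. MMP13 had a log2 difference, AsiSI minus Flp-In, of 1.49 (adjusted p = 0.0154). MMP20, in the same cluster on chromosome 11, had one of 1.37 (adjusted p = 0.0302), which was lost without Flp-In siNC library 1 (adjusted p = 0.0674), Flp-In siMePCE library 1 (0.125), Flp-In siNC library 2 (0.161), AsiSI siNC library 2 (0.0895) or AsiSI siMePCE library 2 (0.082).

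Around the MMPs, the falls of LRP1 (0.75, adjusted p = 0.00346), COL5A1 (1.46, adjusted p = 7.62e-06), AGRN (0.64, adjusted p = 0.0317) and HSPG2 (0.82, adjusted p = 0.00917) were smaller in AsiSI. AGRN lost the call in 6 of 8 fits without 1 library and HSPG2 in 2 of 8. FOSL2, an AP-1 subunit, fell in AsiSI and not detectably in Flp-In (difference -0.84, adjusted p = 0.000178).

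Outside the naming rule, 4 listed genes given here went in opposite directions between the lines, past the threshold in each. TFPI2, an inhibitor of plasmin that also restrains matrix proteases, had means of 21.7 and 11.4 CPM in Flp-In, where it fell, and of 0.229 and 0.687 CPM in AsiSI, where it rose (difference 2.51, adjusted p = 0.000475), the AsiSI call being lost without AsiSI siMePCE library 1 (adjusted p = 0.0542). CLDN1, a tight junction protein, had 3.68 and 9.20 CPM in Flp-In, a rise, and 101 and 67.3 CPM in AsiSI, a fall (difference -1.90, adjusted p = 1.24e-05), the AsiSI call being lost without AsiSI siNC library 1 (adjusted p = 0.0748). SPOCK1 (-1.03, adjusted p = 0.00104) and SERPINE2 (-0.84, adjusted p = 0.00157) rose in Flp-In and fell in AsiSI. SPOCK1 in Flp-In lost its call without Flp-In siNC library 1 or 2 or Flp-In siMePCE library 2, and SERPINE2 in AsiSI without AsiSI siNC library 2 or AsiSI siMePCE library 1, with the filter at a mean of 1 CPM (log2 -0.185, adjusted p = 0.119) and in the 4 libraries alone (adjusted p = 0.0522). Opposite-strand genes overlap all 4. GNGT1 held 23 times the counts of TFPI2, and P3H2-AS1 held 1.15 times those of CLDN1, so reads of these pairs cannot be told apart. Those over SERPINE2 and SPOCK1 held at most 0.214 and 0.0664 times their counts. 4-OHT and cell line cannot be told apart here.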

How the results depend on the processing

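Of 711 values of members under alternatives, 638 kept their direction and side of the threshold, 27 lost a call, 23 gained one and 23 turned sign, all of the last uncalled in either setting. Without a filter MMP13 in Flp-In was -0.021, and with the replicate block -0.006. MMP14 in AsiSI was 0.017 with DESeq2 size factors, 0.017 with DESeq2, 0.118 with the filter at a mean of 1 CPM and 0.010 in the 4 libraries alone, where it was 0.001 between lines under siNC. TIMP3 in Flp-In was 0.014 with the filter at 1 CPM. Leaving out 1 library gave, for knockdown in Flp-In, -0.156 to 0.345 for MMP1 and -0.227 to 0.191 for MMP13. It gave -0.125 to 0.10 for MMP14 in AsiSI, -0.370 to 0.060 for the TIMP1 difference, -0.216 to 0.118 for MMP2 and -0.114 to 0.078 for MMP14 between lines under siNC, and -0.914 to 0.029 for MMP3 under siMePCE. Of 1110 values of other named genes, 1056 kept theirs, 43 lost and 3 gained a call, and 8 turned. FOSL2 in Flp-In was 0.005 with DESeq2 size factors, 0.005 with DESeq2, 0.074 with the filter at 1 CPM, 0.001 in the 4 libraries alone and -0.090 to 0.042 without 1 library, and MMP20 in Flp-In was -0.064 to 0.234. The cause was not tested.

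Genes called ranged, without 1 library, from 12722 to 18407 in Flp-In, 12978 to 16291 in AsiSI, 8688 to 13511 between lines under siNC, 9314 to 14007 under siMePCE, and 733 to 1922 for the difference, which was 733 without Flp-In siNC library 1, 1072 without Flp-In siMePCE library 1 and 1082 without Flp-In siNC library 2. The replicate block raised that count from 1912 to 3089. With the block MMP3 was called in Flp-In (-0.93), in the difference (-1.72) and between lines under siNC (1.32) and siMePCE (-0.40), the TIMP2 and TIMP3 differences (0.43 and -0.46) and TIMP2 under siMePCE (-0.23) passed, and TIMP1 in Flp-In did not (adjusted p = 0.188). Replicates of 1 number correlated by 0.043 to 0.155 between groups, positive in every pair of groups but not over 0.1 in every pair. The main fit therefore had no block, and these values do not settle whether the numbers pair the libraries. Filtering at a mean of 1 CPM shifted log2 values by a median of 0.131 in AsiSI and 0.086 in Flp-In. Low counts, as for MMP1 and MMP13, and 2 libraries per group limit the precision.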
